A study of Papio hamadryas with 12 samples.

Results

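The comparison described here sets baboons with high LDL-C against baboons with low LDL-C on the chow diet, before the diet was changed. It holds 6 of the 12 RNA-seq libraries of the series, 3 of high and 3 of low LDL-C baboons (Papio hamadryas), and 4879 of the 27533 genes in the count table. A gene was kept when it lay on an autosome or on the mitochondrial genome and had 10 or more counts in each of the 6 chow libraries, which left 4858 autosomal genes and 21 of the 38 mitochondrial genes. The animals were adults, 3 half-sib pairs of a pedigreed colony, the members of each pair differing in LDL-C, and all were kept on the same chow, which is low in fat and cholesterol. Their sex and their ages in years are not given in the sources used here, and the labels do not say which animals form a pair. The same 6 animals were sampled again on a high cholesterol, high fat (HCHF) diet, and those libraries are used only to show the levels of the same genes a second time. RNA came from the buffy coat of whole blood, whose cells the labels call white blood cells and the methods call PBMC. The labels number no replicates, so the libraries are called replicates 1 to 3 of each phenotype, in no order.

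LDL is a plasma lipoprotein that carries cholesterol to tissues, and cells take it up through the LDL receptor, whose synthesis falls when the cell holds enough cholesterol. The buffy coat is the thin layer of white blood cells and platelets between plasma and red cells after centrifugation. The mitochondrial genome encodes subunits of the respiratory chain and of ATP synthase, with the ribosomal and transfer RNAs needed to translate them.

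Genes carry Ensembl IDs and positions in the files (build PapAnu2), which do not pair them with symbols. Genes are therefore described by position and as groups, 4 of them by ID, and no gene is given a function, apart from the mitochondrial genome, which the chromosome column names. For the same reason the cell type was not checked against its markers, and lists of lipid, immune and blood cell genes were not applied. In bulk RNA, a lower level can come from fewer cells of a type or from less RNA per cell, and these cannot be told apart.

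The 3 high LDL-C libraries resembled each other, while the 3 low LDL-C libraries did not. Total counts were 3700405 to 8518137 (median 4654769) in low and 3884294 to 5838106 (median 4144044) in high LDL-C libraries. The most abundant gene lay on chromosome 14 (60046720 to 60049466) and the next on chromosome 20 (39182 to 41379). Together they took 16.8%, 89.3% and 63.9% of the counts in low LDL-C replicates 1, 2 and 3. In high LDL-C replicates 1, 2 and 3 they took 51.7%, 55.6% and 52.2%. The phenotype means were 56.7% ± 36.8 (low) and 53.2% ± 2.13 (high; SD, n = 3 each), with no difference detected by an exact permutation test (two-sided p = 0.9, where 3 against 3 cannot go below 0.1). Outside this pair, low LDL-C replicate 2 was left with 915087 counts, against 1334495 to 3872759 in the other 5 libraries. Only 5022 autosomal and mitochondrial genes reached 10 counts in it, compared with 8257 to 10912 in the others. This library alone removed 2910 genes that passed in the other 5. Levels are given as CPM, counts scaled to the library total without the 2 genes and adjusted by the TMM factor. On that scale, 10 counts are worth 19.0 CPM in low LDL-C replicate 2 and 2.46 to 6.53 CPM in the other 5 libraries.

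**Figure D1:**
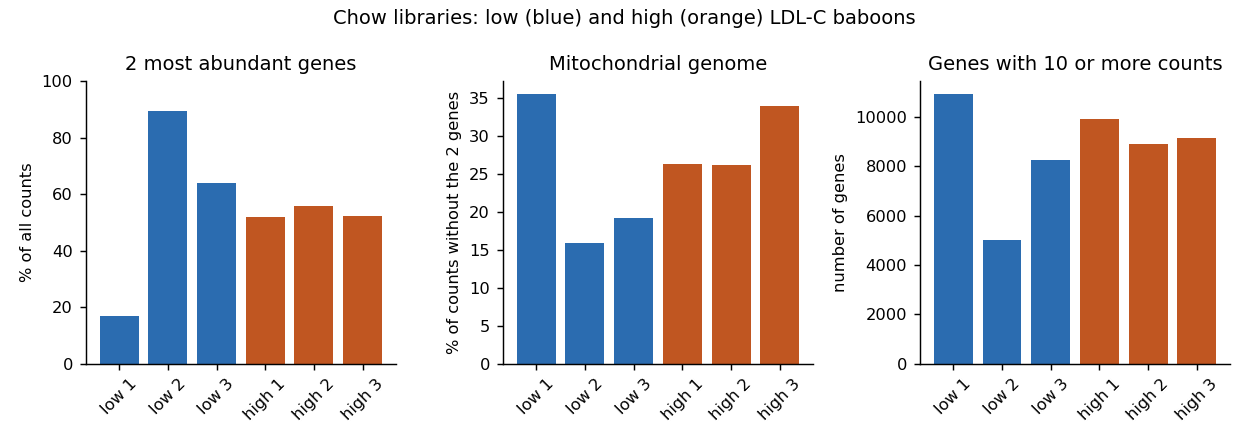
Bars show, for each chow library of low (blue) and high (orange) LDL-C baboons, the share of all counts on the 2 most abundant genes (%), the share of the remaining counts on the mitochondrial genome (%) and the number of autosomal and mitochondrial genes with 10 or more counts. The low LDL-C libraries run from 16.8% to 89.3% for the 2 genes, and the high LDL-C libraries from 51.7% to 55.6%.

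Across the 4879 genes, log2 CPM + 1 had Pearson correlations of 0.93 to 0.95 between high LDL-C libraries, 0.67 to 0.86 between low LDL-C libraries and 0.76 to 0.94 between the phenotypes. These values describe libraries over the same genes, which are not independent. The SD within the phenotype was larger in low LDL-C baboons for 3513 genes (72.0%), with a median of 0.39 for low and 0.25 for high LDL-C libraries on the log2 scale.

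No gene passed the test. A call needed p under 0.05 and, after Benjamini-Hochberg adjustment, under 0.20. By this rule edgeR's quasi-likelihood test called 0 genes higher in high LDL-C baboons and 0 lower (0% of those tested each), and the lowest adjusted p was 0.595. Before adjustment, 33 genes with p under 0.05 were higher (0.676%) and 128 were lower (2.62%) with high LDL-C, 161 in all (3.3%). These 161 are called nominal genes below, and no difference among them passed the correction. DESeq2 called 3 genes higher and 32 lower, and limma voom called 0. On CPM without TMM factors edgeR called 4 genes higher and 61 lower, and the median log2 fold change of all genes moved from -0.02 to 0.25. On the full library totals it called 0 higher and 4 lower, with 0 and 9 nominal genes. Of the 61, 53 had their highest chow level in low LDL-C replicate 2 and 8 in low LDL-C replicate 1. These levels are CPM with TMM factors, not the scale on which the 61 were called. The TMM factor of low LDL-C replicate 2 was 0.57, against 1.05 to 1.19 in the other 5 libraries.

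The differences were unequal in the 2 directions. Log2 fold changes (high minus low) ran from -6.78 to 1.56, and 327 genes were at -1 or lower while 13 were at 1 or higher. Of the 327, 90 were nominal, and of the 13, 7 were. Low LDL-C replicate 2 was at least 5 times above every other library for 153 of the 4879 genes. The filter also removed genes with few counts in that library, where 10 counts are worth 19.0 CPM. The part of this library in the unequal counts was not tested. The 95% interval of a gene's log2 fold change had a median half-width of 0.68 with 3 animals per phenotype. For the typical gene, a difference smaller than this did not reach an unadjusted p under 0.05. A call after adjustment needed a larger difference than that. The levels of the phenotypes did not overlap for 353 genes, 161 of them higher (3.3%) and 192 lower (3.94%) with high LDL-C, together 7.24%. Among the nominal genes the levels did not overlap for 26 of the 33 higher and 66 of the 128 lower.

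**Figure D2:**
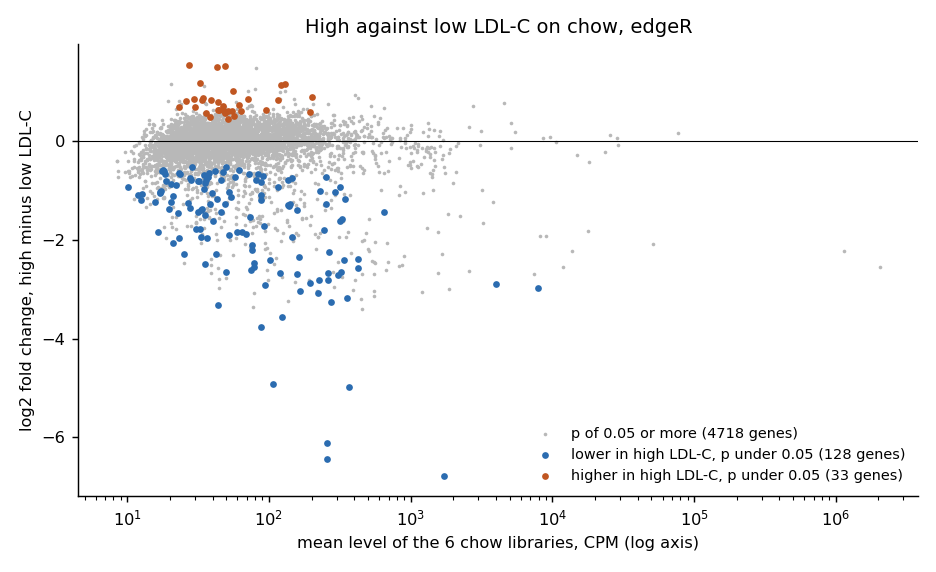
Each point is 1 of the 4879 genes, with the mean level of the 6 chow libraries (CPM, log axis) against the log2 fold change of high minus low LDL-C baboons from edgeR. The 128 blue genes reach down to -6.78 and the 33 orange genes up to 1.56, and neither set holds a gene that passed the correction.

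Nominal genes lower in high LDL-C baboons most often had their highest level in low LDL-C replicate 2. Of these 128 genes, 93 had their highest level in low LDL-C replicate 2, 27 in replicate 1 and 8 in replicate 3. Over all 4879 genes, 28.5% were highest in low LDL-C replicate 2, 21.0% in replicate 1 and 12.4% in replicate 3. The other genes were highest in a high LDL-C library. The 128 were chosen as lower with high LDL-C, which favours a low LDL-C library as the highest, so these shares are not a like baseline. Their median level was 36.6, 104 and 51.6 CPM in low LDL-C replicates 1, 2 and 3, and 25.4, 26.6 and 26.2 CPM in the high LDL-C replicates. One library was at least 5 times above each of the other 5 for 18 of the 128 genes in replicate 2 and for 7 in replicate 1. Over all 4879 genes these counts were 153 in replicate 2 and 9 in replicate 1. Low LDL-C replicate 2 is also the library with 89.3% of its counts on 2 genes and the lowest depth outside them, and replicate 1 the one with the lowest such share. The part of these library differences in the 128 genes was not tested. Without replicate 2, 61 of the 128 genes still had p under 0.05 in that direction, and without replicate 1, 100 were. Of the 66 nominal lower genes without overlap, 36 had low LDL-C levels within 2-fold of each other, with log2 fold changes of -1.96 to -0.51 (median -0.73). The share of all genes tested with low LDL-C levels this even was not counted.

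**Figure D3:**
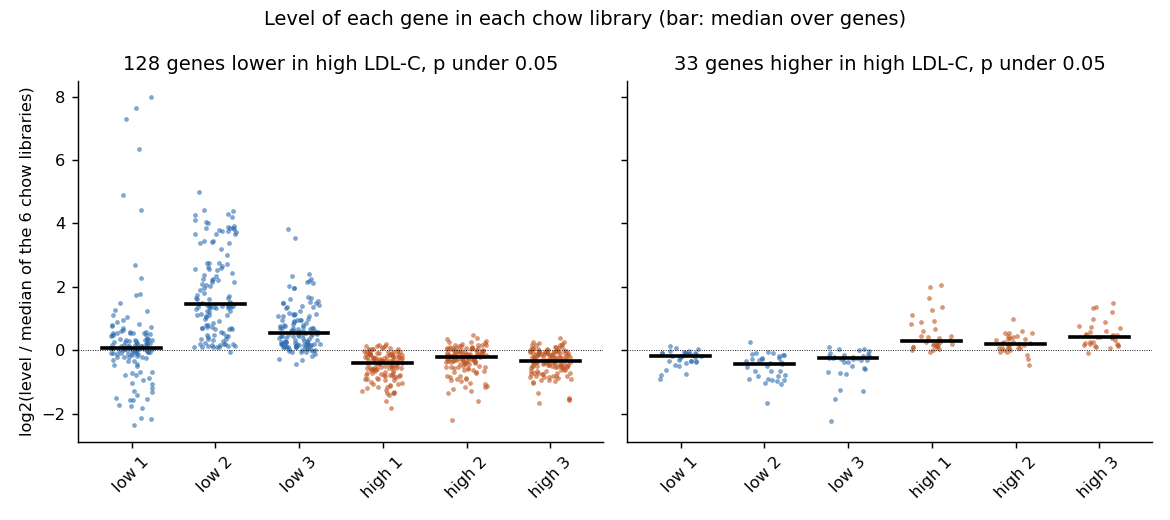
Each point is a nominal gene in 1 chow library, as log2 of its level over the median of its 6 chow levels, with a bar at the median over genes. For the 128 genes lower in high LDL-C baboons the medians are 0.08, 1.46 and 0.54 in low LDL-C replicates 1, 2 and 3 and -0.40, -0.20 and -0.32 in the high LDL-C replicates.

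ENSPANG00000024893, on chromosome 15 from 94153287 to 94160071, had the lowest p of all genes. Its level was 60.2, 74.2 and 41.8 CPM in low LDL-C replicates 1, 2 and 3 and 13.2, 15.1 and 16.4 CPM in high LDL-C replicates 1, 2 and 3. All low LDL-C libraries stood well above all high LDL-C libraries, with means of 58.7 ± 16.2 and 14.9 ± 1.598 CPM (SD, n = 3 each). The log2 fold change was -1.96 (standard error 0.28, 95% interval -2.60 to -1.32), with an unadjusted p of 0.000122 and an adjusted p of 0.595 from edgeR. DESeq2 gave it -1.95 with an adjusted p of 1.03e-06, and over all alternatives the adjusted p ran from that value to 0.99999. The separation was not there on the HCHF diet, where the same animals had 16.3, 62.4 and 45.8 CPM in low and 17.8, 56.1 and 80.7 CPM in high LDL-C baboons.

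ENSPANG00000017328, on chromosome 4 from 59439099 to 59468823, was at 29.7, 66.6 and 55.5 CPM in low and 13.2, 12.7 and 16.8 CPM in high LDL-C replicates. The log2 fold change was -1.78 (standard error 0.34, 95% interval -2.58 to -0.98; unadjusted p = 0.000962, adjusted p = 0.975 from edgeR). On the HCHF diet the levels did not overlap either, at 43.5, 77.8 and 60.9 CPM in low and 24.8, 7.88 and 9.30 CPM in high LDL-C baboons. DESeq2 gave it an adjusted p of 0.00203.

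The next genes by p that were lower without overlap included 2 with even levels in the low LDL-C libraries. The first, on chromosome 9 from 29878228 to 29907411, was at 35.6, 53.3 and 32.02 CPM in low and 15.6, 13.2 and 16.8 CPM in high LDL-C replicates, a log2 fold change of -1.36 ± 0.27 (standard error). The second, on chromosome 1 from 10629545 to 10688159, was at 31.2, 24.7 and 30.7 CPM in low and 15.9, 12.7 and 12.02 CPM in high LDL-C replicates, with -1.10 ± 0.24. For both, the lowest of the low LDL-C libraries exceeded the highest of the high LDL-C libraries by more than the SD within either phenotype. Both overlapped between the phenotypes on the HCHF diet. Like these in its chow levels, a chromosome 3 gene (130729435 to 130735136) was at 39.3, 55.2 and 45.1 CPM in low and 20.2, 26.4 and 23.6 CPM in high LDL-C replicates, and it stayed apart on the HCHF diet, with 36.6, 50.2 and 49.0 CPM against 31.1, 34.3 and 27.3 CPM.

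The 4 lowest fold changes came from genes that were high in low LDL-C replicate 1. The first of them, on chromosome 5 from 55576941 to 55587962, was at 9933 CPM there, 263 and 41.8 CPM in low LDL-C replicates 2 and 3 and 29.7, 37.1 and 26.4 CPM in the high LDL-C replicates. Its log2 fold change of -6.78 had a 95% interval of -11.24 to -2.31. The same gene was at 72.2, 71.5 and 80.4 CPM in low and 27.9, 35.7 and 39.0 CPM in high LDL-C baboons on the HCHF diet, where the phenotypes did not overlap and replicate 1 no longer stood apart. Another chromosome 5 gene (144075253 to 144086657) was at 1460 CPM in replicate 1, 43.8 and 11.1 CPM in replicates 2 and 3 and 4.91, 7.33 and 5.29 CPM in the high LDL-C replicates. The third, on chromosome 2 from 152086979 to 152123187, was at 1474 CPM in replicate 1, and its 7.19 CPM in replicate 3 lay below all high LDL-C levels, 7.36, 7.33 and 7.21 CPM. These last 2 genes were at most 17.1 CPM in every HCHF library.

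Another group of genes was high in low LDL-C replicates 2 and 3 and near the high LDL-C level in replicate 1. A gene on chromosome 12 from 18264927 to 18273261 was at 16.5, 421 and 188 CPM in low and 3.68, 9.77 and 7.21 CPM in high LDL-C replicates (log2 fold change -4.91, standard error 1.09). On the HCHF diet, high LDL-C replicate 2 had 211 CPM of it, within the range of the low LDL-C baboons, which were at 10.9, 509 and 204 CPM. The same held on chromosome 3 for a gene from 3253543 to 3264253, which was at 14.002, 293 and 188 CPM in low and 7.05, 18.1 and 11.1 CPM in high LDL-C replicates, and which was again high in high LDL-C replicate 2 on the HCHF diet (121 CPM).

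Leaving out low LDL-C replicate 1 brought genes of this pattern past the correction. Then 19 genes were called lower, 0 were called higher, and the lowest adjusted p was 0.0457. Leaving out any of the other 5 libraries called 0 genes in either direction. The 19 genes had medians of 154 and 96.7 CPM in low LDL-C replicates 2 and 3, 23.6 CPM in replicate 1 and 21.8, 21.0 and 17.3 CPM in the high LDL-C replicates. For 18 of the 19 replicate 1 was the lowest of the low LDL-C libraries, and for 14 it was no higher than the highest high LDL-C library. These chow counts follow in part from the choice of the 19, which were called in the edgeR fit with replicate 1 left out. On the HCHF diet the medians were 37.6, 139 and 151 CPM in low and 38.7, 69.5 and 20.1 CPM in high LDL-C baboons, so that low LDL-C baboon 1 again had the lowest median of its phenotype. Of the 19, 18 were lower in high LDL-C baboons there and 5 did not overlap, beside 51.7% and 6.05% over all genes tested. Replicates 2 and 3 were also the libraries with the highest shares on the 2 most abundant genes (89.3% and 63.9%), and the part of that share in the 19 genes was not tested.

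**Figure D4:**
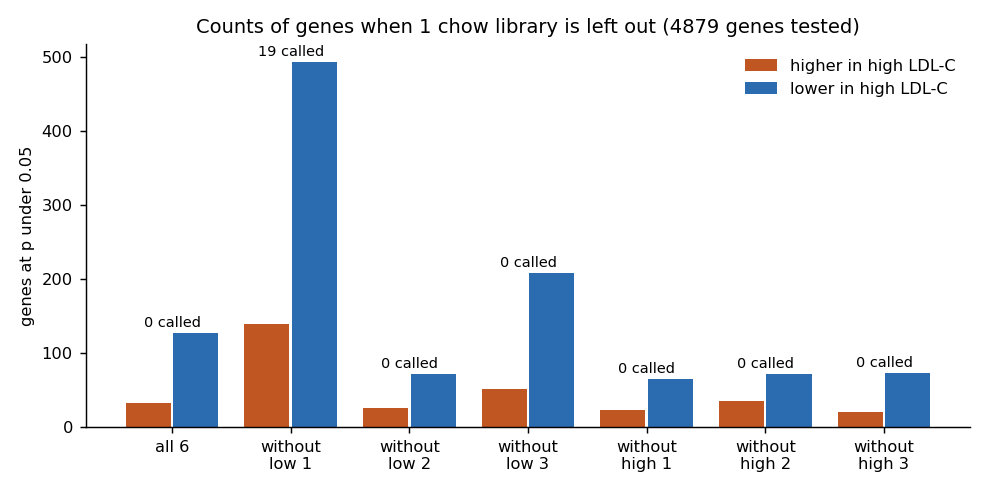
Bars count the genes with p under 0.05 before adjustment in edgeR that were higher (orange) or lower (blue) in high LDL-C baboons, with all 6 chow libraries and with each left out, over the same 4879 genes. The counts are 33 and 128 with all libraries, 139 and 493 without low LDL-C replicate 1, the only case with called genes (19), and 65 to 209 lower genes in the other cases.

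The nominal genes higher in high LDL-C baboons differed by smaller fold changes. Their log2 fold changes ran from 0.45 to 1.56 (median 0.74). Their median level was 40.8, 30.4 and 35.9 CPM in low and 57.9, 52.3 and 62.0 CPM in high LDL-C replicates, and no library was 5 times above the others for any of the 33. The highest level was that of high LDL-C replicate 1 for 14 genes, replicate 2 for 5 and replicate 3 for 14. For 23 of the 26 without overlap, the high LDL-C levels lay within 2-fold of each other. The SD was larger in low than in high LDL-C baboons for 72.0% of all genes tested. A smaller spread with high LDL-C is therefore not particular to these genes. The share of all genes tested with high LDL-C levels within 2-fold was not counted. The low level of low LDL-C replicate 2 rests on few reads, since 24 of the 33 genes had 20 counts or fewer in it (median 16), compared with 41.5% of all genes tested. A gene with fewer than 10 counts there was not tested at all. Among the 2910 genes removed by that library, a fit of the other 5 libraries found 34 higher and 67 lower nominal genes, and none passed the correction.

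ENSPANG00000004313, on chromosome 7 from 155346370 to 155442664, was at 26.04, 19.0 and 26.8 CPM in low and 44.2, 40.1 and 51.0 CPM in high LDL-C replicates. The means were 24.0 ± 4.28 and 45.1 ± 5.52 CPM (SD, n = 3 each), and the 19.0 CPM of low LDL-C replicate 2 are 10 counts. The log2 fold change was 0.87 (standard error 0.23, 95% interval 0.34 to 1.41; unadjusted p = 0.00585, adjusted p = 0.975 from edgeR). On the HCHF diet the phenotypes overlapped, since high LDL-C replicate 2 had 6.49 CPM while the other high LDL-C baboons had 33.0 and 28.5 CPM and the low LDL-C baboons 13.4, 16.7 and 13.8 CPM.

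ENSPANG00000015654, on chromosome 14 from 9862810 to 9866067, was at 51.6, 36.2 and 62.1 CPM in low and 84.3, 94.3 and 95.7 CPM in high LDL-C replicates. The log2 fold change was 0.85 (standard error 0.25, 95% interval 0.27 to 1.43; unadjusted p = 0.0102, adjusted p = 0.975 from edgeR). It was higher without overlap on the HCHF diet too, with 36.6, 84.6 and 44.0 CPM in low and 85.7, 139 and 85.2 CPM in high LDL-C baboons, where the closest levels were 84.6 and 85.2 CPM.

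**Figure D5:**
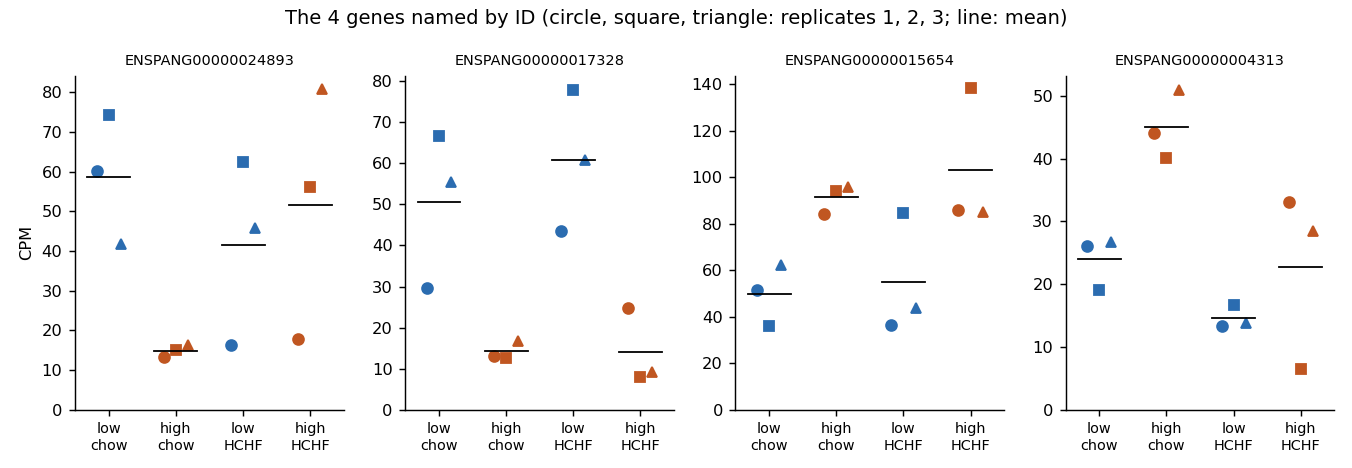
Levels (CPM) of the 4 genes named by ID in each baboon on chow and on the HCHF diet, low LDL-C in blue and high LDL-C in orange, with a line at the mean of 3. The phenotypes are apart on chow in all 4 panels, and on the HCHF diet for ENSPANG00000017328 and ENSPANG00000015654 only. CPM were scaled within each diet.

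Other genes higher without overlap had levels of the same order. On chromosome 15, the gene from 21183742 to 21316448 was at 25.3, 20.9 and 35.9 CPM in low and 51.5, 57.1 and 41.8 CPM in high LDL-C replicates. One on chromosome 19 (45105036 to 45127838) was at 40.8, 34.2 and 28.1 CPM in low and 55.8, 52.3 and 54.3 CPM in high LDL-C replicates. Another, on chromosome 14 from 1960600 to 1975910, was at 73.0, 70.4 and 82.3 CPM in low and 128, 117 and 104 CPM in high LDL-C replicates. These 3 were higher without overlap on the HCHF diet as well. Among the 8 genes with the lowest p that were higher without overlap on chow, the other 3 overlapped there, with HCHF log2 fold changes of 0.01, 0.07 and -0.69, and lay on chromosomes 5 (48711517 to 48720955), 10 (60770643 to 60771555) and 1 (132130884 to 132134177). The highest nominal fold change, 1.56 on the log2 scale, was that of a gene on chromosome 4 from 26205907 to 26206225 whose phenotypes overlapped, with 15.0, 22.8 and 6.53 CPM in low and 75.1, 13.7 and 30.8 CPM in high LDL-C replicates. A gene near the start of chromosome 1, from 9315284 to 9321033, was at 218, 112 and 91.5 CPM in low and 224, 253 and 314 CPM in high LDL-C replicates, so that low LDL-C replicate 1 nearly reached the high LDL-C level. On the HCHF diet its levels were 118, 157 and 49.6 CPM in low and 204, 398 and 321 CPM in high LDL-C baboons.

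Of the nominal genes, 21 were apart in the same direction on both diets, 9 higher and 12 lower with high LDL-C. Over all 4879 genes, 26 were higher and 27 lower without overlap on both diets. The HCHF libraries come from the same 6 animals, so they are a second sample of each animal and not an independent comparison. In these libraries the 2 most abundant genes took 49.2%, 63.6% and 59.1% of the counts in low LDL-C replicates 1, 2 and 3. In the high LDL-C replicates this share was 43.5%, 47.9% and 16.3%, without overlap between the phenotypes. The part of that share in the HCHF differences was not tested. Of the 33 nominal higher genes, 30 were also higher on the HCHF diet and 10 did not overlap there, beside 48.3% higher and 3.67% higher without overlap over all 4879 genes. Of the 128 nominal lower genes, 111 were also lower on the HCHF diet and 33 did not overlap there, beside 51.7% and 6.05% over all genes, of which 474 (9.72%) did not overlap there in either direction. Among all genes with a positive log2 fold change on chow, 65.4% were higher on the HCHF diet and 5.83% were higher without overlap. Among all those with a negative one, 67.0% were lower there and 9.97% were lower without overlap. A gene on chromosome 17 from 76651383 to 76652469 had the largest difference on the HCHF diet among the 21 nominal genes apart on both diets. It was at 118, 352 and 222 CPM in low and 112, 113 and 36.1 CPM in high LDL-C replicates on chow, and at 419, 406 and 724 CPM in low and 191, 96.8 and 52.8 CPM in high LDL-C baboons on the HCHF diet.

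For mitochondrial genes no difference between the phenotypes was detected beyond the spread between animals. Their share of the counts outside the 2 most abundant genes was 35.4%, 15.9% and 19.2% in low and 26.3%, 26.2% and 33.9% in high LDL-C replicates, with means of 23.5% ± 10.5 and 28.8% ± 4.46 (SD, n = 3 each; exact permutation test, two-sided p = 0.5). Of the 21 genes tested, 11 were higher and 10 lower with high LDL-C, 0 were nominal (lowest unadjusted p 0.219 in edgeR), and none was free of overlap. Their median log2 fold change was 0.06, beside -0.02 over all genes, and the half-widths of their 95% intervals were 0.66 to 2.14. Low LDL-C replicate 3 had the lowest level for 17 of the 21. The gene from 5332 to 6901 was the most abundant of them, at 98889, 64364 and 53770 CPM in low and 66607, 72211 and 103999 CPM in high LDL-C replicates. The gene from 73 to 1020 had the lowest fold change, -1.23 on the log2 scale, and it was at 13317 CPM in low LDL-C replicate 2 against 1119 to 2655 CPM in the other 5 libraries. The gene from 1089 to 2651 was likewise highest in that library, at 44591 CPM against 5748 to 19214 CPM. On the HCHF diet 20 of the 21 genes were lower in high LDL-C baboons and 14 did not overlap, with a median log2 fold change of -0.67, beside 51.7% lower and 6.05% lower without overlap over all genes tested. The mitochondrial share of the counts outside the 2 most abundant genes overlapped between the phenotypes on that diet. It was 40.7%, 42.2% and 32.6% in low and 30.8%, 29.1% and 38.4% in high LDL-C replicates. The levels carry TMM factors and the shares do not. Neither the part of the scaling nor the difference between the diets was tested.

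Most of the 12 most abundant nuclear genes were highest in low LDL-C replicate 2 and lowest in low LDL-C replicate 1. They were the 12 with the highest mean, the pair above included. Of these, 10 were highest in low LDL-C replicate 2 and all 12 were lowest in low LDL-C replicate 1. For 10 the high LDL-C levels lay within the low LDL-C range. A very high level in 1 library raises the mean, so the count for replicate 2 follows in part from this choice. A gene on chromosome 19 from 17079366 to 17094306, the only nominal one, was at 500, 32016 and 9812 CPM in low and 897, 2377 and 2113 CPM in high LDL-C replicates. One on chromosome 1 (168572975 to 168573792) was at 3089, 62321 and 18290 CPM in low and 9095, 7068 and 7683 CPM in high LDL-C replicates. Against these, a gene on chromosome 7 from 19238258 to 19245156 varied less, at 7388, 11632 and 8815 CPM in low and 11861, 8552 and 9292 CPM in high LDL-C replicates.

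Short genes held more of the nominal genes than long ones. Of the 1220 genes with the shortest span (59 to 9471 bases), 15 were nominal and higher and 50 nominal and lower, compared with 5 and 14 of the 1220 with the longest (55310 to 626349 bases). By mean level, the 1220 lowest genes held 5 higher and 30 lower nominal genes and the 1220 highest 5 and 44. The share of nominal genes ran from 0% on the mitochondrial genome to 5.15% on chromosome 9, and a pair of nominal lower genes on chromosome 9, from 124839124 to 124841707 and from 124845952 to 124858181, lay 4245 bases apart. The second of these was at 94.6, 64.7 and 49.7 CPM in low and 35.6, 30.3 and 37.5 CPM in high LDL-C replicates. These counts are descriptions, and their difference was not tested.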

How the data were processed

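Buffy coat RNA of 6 baboons on chow was analysed, 3 libraries per phenotype. The authors enriched mRNA by poly-A selection, sequenced paired ends, used CASAVA 1.8 for the FASTQ files, trimmed the reads, mapped these to Ensembl's PapAnu2 transcripts using STAR 2.3.1j, and quantified each transcript with Partek's expectation maximization algorithm. The deposited values are the authors' expected counts for 29300 transcripts, not scaled for length or depth, so levels of different genes are not comparable per molecule. Whether strand was used is not given in the sources used here. Reads shared by similar genes may be split between them.

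Expected counts of a gene's transcripts were added up and rounded to whole numbers. The library size was the total without the 2 most abundant genes (both of which stay among the genes tested), with TMM factors. The phenotypes were compared with edgeR 4.0.16 (glmQLFit and glmQLFTest, two-sided, no covariates), and p-values were adjusted over all 4879 genes. The threshold for a call was p under 0.05 with an adjusted p under 0.20, the FDR of the methods. The HCHF levels were scaled in the same way within the 6 HCHF libraries. Library totals and counts bound precision by counting error only. The edgeR p-values set the difference between the phenotypes against the spread between these animals, which is moderated across genes. Alternatives used limma 3.58.1 and DESeq2 1.42.0 in R 4.3.3. The test was checked on simulated data in which no library stood apart in its gene levels. That check therefore does not cover low LDL-C libraries that differ as these do.

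The members, lists and tests were chosen with earlier results of these data known. The rule for named genes took nominal genes without overlap by lowest p, at most 2 IDs per direction since no symbols are given, and every mitochondrial gene. Genes described by position beyond these were chosen after their values were seen. The labels do not say which animals are half-sib pairs, so the test is unpaired. The labels give the same index sequence to 1 low and 1 high LDL-C chow library each (3 pairs), while the methods describe 1 pool, in which such libraries could not be told apart, so how they were pooled is not known.

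Alternatives were other scalings, DESeq2, limma voom, robust empirical Bayes, no filter, 50 or more counts in each library, a mean CPM of at least 1, all chromosomes and scaffolds, an adjusted p under 0.05, the index sequence as a block, and leaving out each library. Leaving out low LDL-C replicates 1 and 2 together, and filtering again without replicate 2, were chosen after seeing the data.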

Additional observations from a re-analysis of the deposited data

How the results depend on the processing

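The count of 0 called genes depended on the scaling, the tool and 1 library, and the causes were not tested. Genes called higher and lower were 4 and 61 on CPM without TMM factors, 0 and 4 on full library totals, 3 and 32 with DESeq2 (20 genes without an adjusted p), and 0 and 4 without low LDL-C replicates 1 and 2 together, a fit in which the lone low LDL-C library is assumed to vary like the others. Leaving out 1 library gave 0 called higher and 0 to 19 called lower, with 19 only without low LDL-C replicate 1. The other alternatives called 0 genes. Nominal higher and lower genes were 33 and 128 in the test reported. They were 43 and 184 without TMM factors, 0 and 9 on full totals, 52 and 246 with DESeq2, 23 and 79 with limma voom, 139 and 959 of 16432 genes without a filter, 120 and 614 of 12037 genes at a mean CPM of at least 1, 3 and 33 of 1174 genes with 50 or more counts, and 91 and 200 without replicates 1 and 2. Leaving out 1 library gave 21 to 139 higher and 65 to 493 lower. Without low LDL-C replicate 2 and with the filter on the other 5 libraries, they were 63 and 140 of 7789 genes.

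No paired analysis was possible because the labels give neither replicate numbers nor half-sib pairs. With the index sequence as a block, nominal genes were 30 and 77 and 0 were called. The 4 genes named by ID kept their direction in all 19 alternatives that tested them. This follows largely from their choice, since genes without overlap on chow can hardly reverse when a library is left out. Robust empirical Bayes and an adjusted p under 0.05 also keep the fold changes of the test reported. The median log2 fold change of the mitochondrial genes, 0.06, was -0.21 to 0.37 when 1 library was left out, so its sign is not set, and 0.67 without low LDL-C replicates 1 and 2. No alternative called a mitochondrial gene. The difference in the share of the 2 most abundant genes, -3.47 percentage points (high minus low), was -23.4 to 12.8 when 1 library was left out. It turned positive without low LDL-C replicate 2 (12.8) and replicate 3 (0.17). The difference in the mitochondrial share of all counts, 0.81 percentage points, was -4.68 to 9.20, negative without low LDL-C replicate 2 (-4.68), low LDL-C replicate 3 (-2.08) and high LDL-C replicate 3 (-0.55). An exact permutation test of these shares cannot go below p = 0.1, so none could pass 0.05, and both reached 0.1 without low LDL-C replicate 1 (-23.4 and 9.20 percentage points). Depth limits the test most in low LDL-C replicate 2, where the median gene tested had 25 counts.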
